A study of Homo sapiens with 8 samples.

Results

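Non-promoter RNAPII regions found only with CDDD11-8 are stretches of chromatin where RNA polymerase II (RNAPII) was called as enriched in each of the CDDD11-8 libraries but not with vehicle. They were chosen by the measured presence and absence of regions in the peak lists. A region of CDDD11-8 replicate 1 was a member when it overlapped a region of CDDD11-8 replicate 2 by at least 1 bp, overlapped no region of either vehicle library, and lay more than 300 bp from the transcription start site (TSS) of every annotated protein-coding transcript. Of the 15476 non-promoter regions of CDDD11-8 replicate 1, 1422 (9.19%) were members, out of 183538 regions of all kinds in the 4 libraries. The libraries came from MDA-MB-453, an established human breast cancer cell line, treated for 4 h with vehicle or with 600 nM CDDD11-8 (named D11-8 in the labels), an inhibitor of the kinase CDK9. Each treatment had 2 replicates from independent passages. Chromatin was precipitated with an antibody to RNAPII (clone CTD4H8), and each ChIP library was paired with a chromatin input. Inputs, 4 in number, were used here only through the authors' peak calls. The data thus describe 1 cell line at 1 dose and 1 time.

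RNAPII initiates at promoters and commonly pauses shortly after the start. CDK9, the kinase of the elongation factor P-TEFb, phosphorylates RNAPII and its pausing factors and lets the polymerase move into the gene body. Past the polyadenylation site at the transcription end site (TES), the nascent transcript is cleaved and RNAPII slows and leaves the DNA, a step that also involves CDK9. RNAPII can also be found upstream of promoters, where it transcribes away from the gene, and at enhancers and long non-coding RNA (lncRNA) genes. ChIP gives no strand, so the direction of travel at a region can only be read from the annotation around it.

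The sequence under the strongest summit is shown for 2 of the 10 members with the highest fold enrichment in both CDDD11-8 libraries, because one is GC-rich and the other of mixed composition. The order was by the mean percentile of fold in both libraries, and 4 of the 10 stand there through a replicate 2 region that reached a promoter. Each window spans 300 bp of the plus strand of GRCh37, 5′ to 3′, and capitals mark 4 motifs read on either strand. The motif GGGCGG is frequent in GC-rich promoters. The motif TATAAA is the TATA box. The motif AATAAA is the polyadenylation signal. The motif TGANTCA is the AP-1 site, the same on both strands. The windows lie 14.0 kb past the TES of ETF1, which encodes a translation termination factor, and 4.18 kb past that of RPSA, a protein of the small ribosomal subunit. Each window is named by the nearest such TES behind it, and other genes near it were not compared.
past ETF1, chr5:137827605-137827904: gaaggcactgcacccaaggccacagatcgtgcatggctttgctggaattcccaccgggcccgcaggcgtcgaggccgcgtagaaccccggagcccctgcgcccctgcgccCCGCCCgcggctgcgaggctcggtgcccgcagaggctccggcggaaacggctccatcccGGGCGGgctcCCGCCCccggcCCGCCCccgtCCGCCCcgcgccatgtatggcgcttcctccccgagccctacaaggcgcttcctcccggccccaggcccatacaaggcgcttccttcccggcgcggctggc
past RPSA, chr3:39471779-39472078: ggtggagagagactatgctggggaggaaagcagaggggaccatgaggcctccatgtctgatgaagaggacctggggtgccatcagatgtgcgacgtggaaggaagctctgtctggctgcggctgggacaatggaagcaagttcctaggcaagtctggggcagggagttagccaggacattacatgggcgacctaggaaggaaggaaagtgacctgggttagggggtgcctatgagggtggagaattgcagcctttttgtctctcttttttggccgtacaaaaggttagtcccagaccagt
The window past ETF1 was 75% GC, with 36 CpG dinucleotides and 5 GGGCGG matches. The window past RPSA, at 55% GC, held 5 CpG dinucleotides and none of the 4 motifs. A match of letters is a description and does not show that a factor binds there.

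Facts of the whole series bear on how the members were chosen. The vehicle lists held 78306 and 57493 regions and the CDDD11-8 lists 25897 and 21842, so absence from vehicle was judged against the longer lists. The lists give no read totals, and the depth behind each value is unknown beyond the minimum per sample that the labels state. The label of the cell line was checked against marker genes. All 10 markers of luminal androgen receptor breast cancer cells had a promoter region in each of the 4 libraries, none of 6 basal or mesenchymal markers had one in any library, and of 4 blood and stromal markers COL1A1 had one in each library.

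Members were mostly short and of modest enrichment. Their width and fold were read from the lists that chose them and are given without a test. The median width was 680.5 bp, with the middle 50% between 448 and 1162 bp and extremes of 294 and 15530 bp. Of the 1422 members, 985 (69.3%) were under 1 kb and 32 were over 5 kb wide. Together they covered 1508 kb. The median fold enrichment over local background was 3.64 in replicate 1, where it ranged from 1.55 to 17.4, and 3.76 for the overlapping regions of replicate 2. Ranked among all non-promoter regions of the same library, the median member stood at percentile 56.7 in replicate 1 and 66.7 in replicate 2. Of all members, 18 were above percentile 90 in both replicates, and 243 were below percentile 50 in both. For comparison, the 4078 non-promoter regions of CDDD11-8 replicate 1 that were found in all 4 libraries had a median width of 1512.5 bp and a median fold of 4.66.

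Members fell into 2 kinds according to the region they met in replicate 2. For 1068 members the replicate 2 region was itself free of promoters and of vehicle regions. In these the median fold was 3.75 in replicate 1 and 3.50 in replicate 2, and across members the Spearman correlation between replicates was 0.30 for fold and 0.34 for width. For the other 354 members (24.9%) the replicate 2 region reached a promoter (274 members) or a vehicle region (343 members). These replicate 2 regions were wide, with a median of 4186.5 bp, and had a median fold of 15.9 against 3.47 for the members themselves. Over all members the correlation was 0.056 for fold and 0.041 for width. These correlations run across regions of the same libraries, which are not independent replicates.

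**Figure D1:**
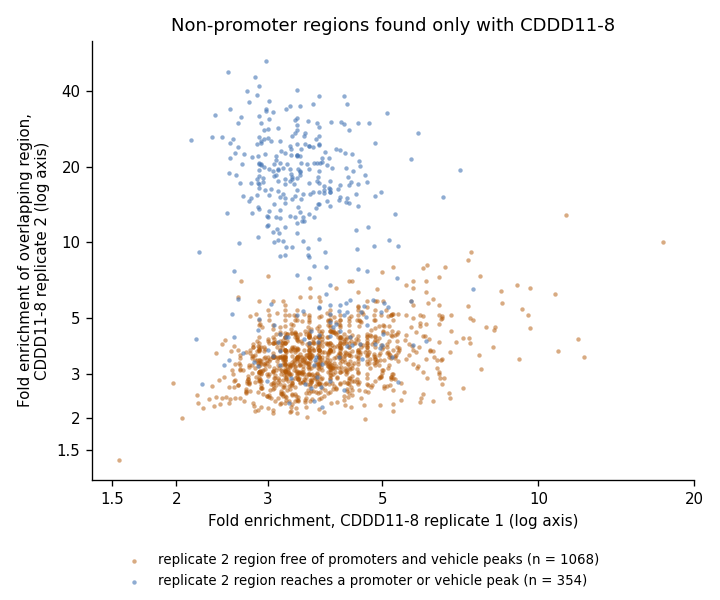
Fold enrichment of each of the 1422 members in CDDD11-8 replicate 1 (x axis, log scale) and of the overlapping region in replicate 2 (y axis, log scale), 1 point per member. The 1068 members whose replicate 2 region was free of promoters and vehicle regions have median folds of 3.75 and 3.50, and most of the 354 others lie above them, at a median fold of 15.9 in replicate 2.

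The number of members depended on how strictly presence and absence were read. The members nearest to the TSS limit lay 320, 355 and 362 bp from a TSS, and the regions just excluded lay 294, 292 and 279 bp away with folds of 4.66, 3.78 and 8.13. The TSS limit alone excluded 253 regions. The member nearest to a vehicle region abutted it with 0 bp between them, and the excluded region with the least overlap shared 2 bp with one. The median gap from a member to the nearest vehicle region was 1790.5 bp. While 535 members (37.6%) lay within 1 kb of a vehicle region, 307 (21.6%) lay more than 10 kb from any. Requiring 5 or more on the −log10 scale of the q-value in all 4 lists left 585 members. The number became 3347 without CDDD11-8 replicate 1 and 5244 without CDDD11-8 replicate 2. Counting regions of replicate 2 by the same rule gave 2244 of 11826 (19%), and the mirrored rule for vehicle replicate 1 gave 20819 of 66902 (31.1%) found only with vehicle.

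Members lay outside protein-coding genes more often than the other non-promoter regions did, which is given as a description with no test. Placed by the strongest summit, 686 members (48.2%, 95% Wilson interval 45.7 to 50.8) were inside a protein-coding gene, against 55.1% of regions found in all 4 libraries and 81.3% of those found only with vehicle. Up to 10 kb upstream of a TSS lay 251 members (17.7%, 15.8 to 19.7), against 4.90% and 1.53%. Up to 10 kb downstream of a TES lay 131 members (9.21%, 7.82 to 10.8), against 19.7% and 13.0%. A further 79 members (5.56%, 4.48 to 6.87) were inside a lncRNA gene away from these windows, against 9.27% and 2.31%. The remaining 275 members (19.3%, 17.4 to 21.5) were intergenic, against 11.1% and 1.81%. The intervals cover counting error only, and neighbouring members are not independent. Of all non-promoter regions with vehicle, 81.5% and 79.4% were inside protein-coding genes. Members had to avoid vehicle regions, so the rule itself bears on their lower share inside genes. Restricted to the 1068 members with a free replicate 2 region, the shares were 45.2% inside genes, 12.5% upstream, 10.7% downstream, 6.84% in lncRNA genes and 24.8% intergenic.

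Intergenic and lncRNA members were the widest and lay the farthest from vehicle regions. The 275 intergenic members had a median width of 896 bp and a median gap of 8336 bp to the nearest vehicle region. The 79 in lncRNA genes had 839 bp and 9728 bp. The 251 upstream members were the shortest, at a median of 545 bp, and lay 775 bp from a vehicle region. Median fold in replicate 1 differed little between the classes, from 3.51 upstream of a TSS to 4.07 in lncRNA genes.

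Whether the treatments differed in where their non-promoter regions lay was tested over the 4 libraries, using every non-promoter region and not members alone. The share inside protein-coding genes was 81.5% and 79.4% with vehicle and 62.9% and 59.7% with CDDD11-8. The intergenic share was 2.43% and 2.80% with vehicle and 9.40% and 10.3% with CDDD11-8. Both differences, −19.2 and 7.25 percentage points, exceeded the difference between the replicates of either treatment. With the same number of strongest regions in every library the first was −9.75, and with a window of 50 kb around genes the second was 1.71. The exact two-sided permutation test over libraries gave p = 0.33 (n = 2 per treatment). An exact test of 2 against 2 libraries has 6 splits and cannot give less than p = 0.33, and all 8 comparisons tested gave that value, with a Benjamini-Hochberg adjusted p of 0.333.

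The upstream share was 2.91% and 3.04% with vehicle against 8.17% and 9.13% with CDDD11-8, and the lncRNA share was 2.95% and 2.96% against 5.26% and 5.80% (exact permutation p = 0.33 for each). The downstream share was 10.2% and 11.8% with vehicle and 14.3% and 15.0% with CDDD11-8 (exact permutation p = 0.33). In each of the 5 classes the 2 libraries of one treatment lay apart from those of the other. With the same number of strongest regions in every library, however, the downstream difference changed from 3.66 to −2.02 percentage points, and it was 0.80 with a window of 3 kb and 8.76 with one of 50 kb. The lncRNA difference, 2.57 percentage points, was 1.03 with equal numbers of regions, 0.85 with a window of 50 kb and 4.10 at the stricter q-value.

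**Figure D2:**
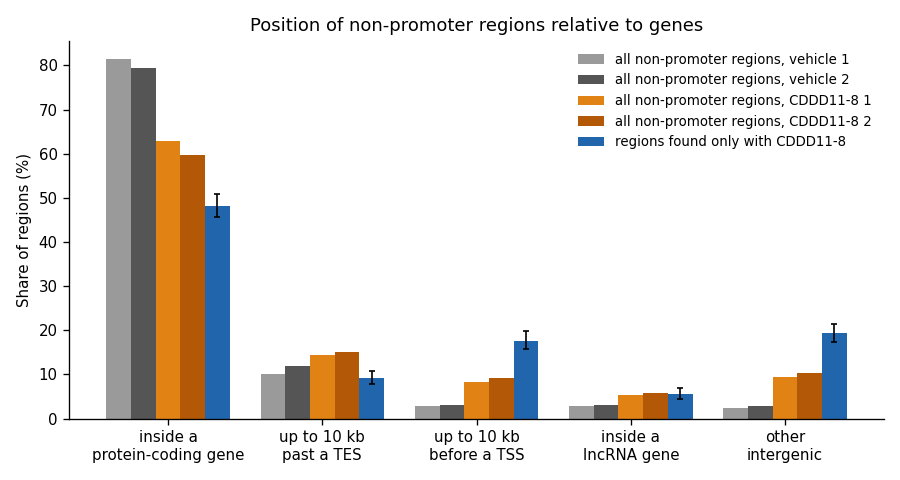
Share of regions (%) in each position class for all non-promoter regions of each library (grey, vehicle; orange, CDDD11-8) and for the 1422 members (blue, with the 95% Wilson interval). Members were inside genes less often (48.2%) and upstream of a TSS (17.7%) or intergenic (19.3%) more often than the non-promoter regions of any library. Members had to avoid vehicle regions, most of which lay inside genes, so the rule itself bears on this contrast.

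Members upstream of a TSS sat beside promoters that RNAPII occupied. Their median distance to the TSS was 2.60 kb, and for 213 of 251 (84.9%) the gene had a promoter region in all 4 libraries. Within 5 kb of a promoter region of the same list lay 222 of them (88.4%), at a median gap of 294 bp over the class. For 111 (44.2%) the overlapping replicate 2 region was part of the promoter region itself. The class thus holds many stretches that were split from the promoter in 1 replicate and joined to it in the other. Of the strongest members, the region 4.87 kb upstream of LAMTOR5, a subunit of the Ragulator complex at lysosomes, was of this kind. It had a fold of 7.04 over 4801 bp in replicate 1 and overlapped a region of 11522 bp and fold 19.4 in replicate 2 that reached the promoter. The region 2.91 kb upstream of TRIM26, a ubiquitin ligase gene, likewise had a fold of 5.86 over 963 bp and met a promoter region of fold 27.2.

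Inside protein-coding genes, 626 of 686 members (91.3%) had their summit in an intron, 38 in a coding exon and 22 in a UTR. The intron share was 74.1% for regions found in all 4 libraries and 86.2% for those found only with vehicle. Of the 686, 386 (56.3%) lay within 5 kb of a promoter region of the same list. The host gene had a promoter region in every library for 459 members (66.9%), and such genes are called active here. It had none in any library for 134 members (19.5%), against 11.3% of regions found in all 4 libraries and 4.67% of those found only with vehicle. Of these 134 members in silent hosts, 106 (79.1%) lay within 50 kb past the TES of an active gene, and for 87 of the 106 (82.1%) the host was on the strand opposite to that active gene. These members are thus antisense to their host if they are read in the direction of the active gene, which ChIP cannot show. Of the 134 members, 16 were inside IL12RB2 and 10 inside MAP3K19, so they are not independent. The same 2 shares are not given here for other regions.

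Antisense and lncRNA annotation covered few members. The summit was inside any lncRNA gene for 185 members (13.0%), against 20.8% of regions found in all 4 libraries and 10.6% of those found only with vehicle. It was within 300 bp of a lncRNA start for 52 (3.66%), against 16.4% and 2.10%. Of the 686 members inside a protein-coding gene, 24 (3.50%) also lay in a lncRNA gene on the opposite strand. A miRNA, snRNA or snoRNA gene was overlapped by 1 member each, and a pseudogene by 43 (3.02%).

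Members outside genes were fewer at 0 to 5 kb past the ends of active genes than at 5 to 10 kb, a bin of the same width. Of the 736 members outside protein-coding genes, 48 (6.52%) had their summit 0 to 5 kb past the nearest TES of an active gene, 104 (14.1%) at 5 to 10 kb, 180 (24.5%) at 10 to 20 kb and 190 (25.8%) at 20 to 50 kb. These bins widen with distance, so the shares compare sets within a bin and not densities along the distance. Of regions found only with vehicle, 58.3% lay at 0 to 5 kb and 5.30% at 10 to 20 kb. Regions found in all 4 libraries had 30.5% at 0 to 5 kb and 7.47% at 10 to 20 kb. Counting members outside genes together with those in silent hosts, 628 (44.2%, 95% Wilson interval 41.6 to 46.8) lay within 50 kb past an active TES, against 30.6% of regions found in all 4 libraries and 17.5% of those found only with vehicle. The limit of 50 kb was chosen after the distances had been seen. Within 20 kb the shares were 27.1% of members, 25.7% of regions found in all 4 libraries and 16.2% of those found only with vehicle, so the contrast with regions found in all 4 libraries rested on the distances beyond 20 kb. Because members had to avoid vehicle regions, and vehicle regions were dense in the first 5 kb, the rule itself thinned members close to the TES. Position past an active TES was compared with distance to a promoter. Of the 789 members more than 5 kb from a promoter region of their own list, 480 (60.8%) lay past an active TES in this way, and of the 633 closer ones 148 (23.4%) did. Members inside genes other than silent hosts could not be counted. Inside protein-coding genes lay 386 of the 633 closer members, so the definition set this contrast in part.

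**Figure D3:**
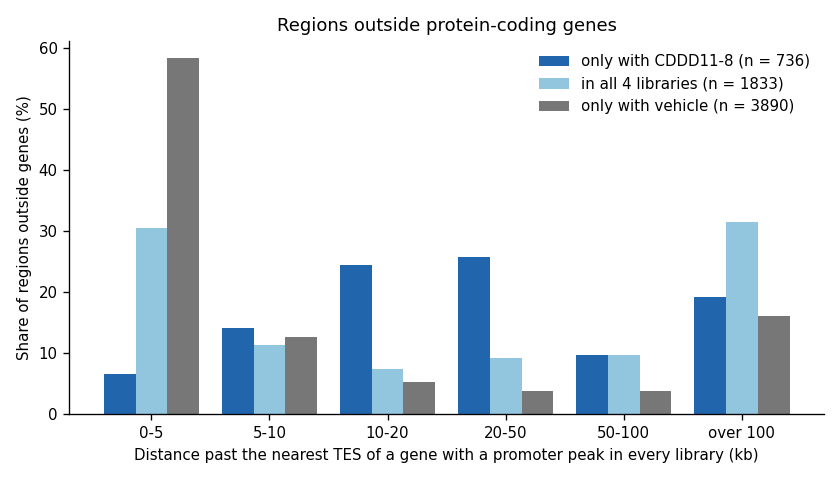
Share (%) of the regions outside protein-coding genes by distance (kb) past the nearest TES of a gene with a promoter region in every library, for members (n = 736), regions found in all 4 libraries (n = 1833) and regions found only with vehicle (n = 3890). The bins widen with distance, so heights compare the sets within a bin. At 0 to 5 kb the share is 6.52% for members and 58.3% for regions found only with vehicle, and at 10 to 20 kb it is 24.5% and 5.30%.

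Many members stood in runs. Joining members with at most 5 kb between neighbours placed 618 (43.5%) in 187 runs of 2 or more, and 33 runs held at least 5 members each, 227 in all. There were 5 such runs at the stricter q-value and 21 with a gap of at most 2 kb. Of these 33 runs, 29 began within 50 kb past the TES of an active gene. Of all members, wherever placed, 66.0% lay within this distance, a limit chosen after the distances had been seen. The shares in runs are not set beside those of other regions here, so they do not show whether runs are particular to members. With regions within 1 kb merged in each list, 380 members were left. The run with the most members, 13 over 29.3 kb, followed SFPQ, which encodes a splicing factor. It ran from 14.9 to 44.2 kb past the SFPQ TES. Vehicle regions covered 0% of its span in both replicates, and CDDD11-8 regions covered 58.0% and 41.9%. Between the TES and the run, coverage was 47.7% and 42.1% with vehicle and 93.7% and 92.1% with CDDD11-8, and CDDD11-8 regions were nearly unbroken from the gene up to the run.

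Runs behind other genes for RNA-processing proteins also stood beyond the vehicle signal. The run behind SRSF3, a splicing regulator, held 9 members between 20.5 and 59.9 kb, with a coverage of 92.8% and 76.5% in the CDDD11-8 libraries and 0% in both vehicle libraries. It contained the widest member of all, 15530 bp with a fold of 9.10 in replicate 1 and 6.79 over 14670 bp in replicate 2. The summit of this member was 54742 bp past the SRSF3 TES, and the member lay 12128 bp from the nearest protein-coding TSS. Runs are named by the active gene behind them, and genes ahead of them were not compared. In the vehicle libraries, regions covered 82.7% and 68.8% of the stretch between the SRSF3 TES and the run. The run behind PNN, whose product pinin associates with spliceosomes, held 8 members from 8.37 to 26.3 kb, covered 82.2% and 61.1% with CDDD11-8 and 0% with vehicle. The run behind DHX15, an RNA helicase of spliceosome disassembly, held 9 members from 19.0 to 33.1 kb, covered 71.9% and 56.6% with CDDD11-8. Of the DHX15 gene itself, vehicle regions covered 86.2% and 83.9%, and CDDD11-8 regions 7.0% and 6.92%.

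Further runs stood behind genes of other functions. ZNF207, which encodes a spindle assembly protein, was followed by 11 members from 24.9 to 52.7 kb, covered 76.8% and 52.4% with CDDD11-8 and 1.25% and 0% with vehicle. In contrast to SFPQ, CDDD11-8 regions covered less of the stretch between the ZNF207 TES and the run (34.3% and 19.96%) than vehicle regions did (83.2% and 70.7%). In CDDD11-8 replicate 1 this run led into a region at 52.9 to 65.2 kb, where vehicle replicate 1 had one at 62.2 to 64.1 kb. ATAD2, a bromodomain ATPase gene, was followed by 9 members from 8.83 to 41.8 kb and TRPS1, a GATA-type transcription factor gene of luminal breast cells, by 8 members from 9.92 to 27.01 kb. The ATAD2 run led into a CDDD11-8 replicate 1 region at 42.0 to 48.6 kb, where vehicle replicate 1 had one at 44.2 to 47.2 kb. At TRPS1, vehicle regions covered 66.9% and 66.2% of the gene and CDDD11-8 regions 4.28% and 4.65%, while the run past its end was covered 71.9% and 82.6% with CDDD11-8 and 0% with vehicle.

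The other 3 of the 10 runs with the most members lay in a neighbouring gene. Behind SERBP1, an mRNA-binding protein gene, 12 members stood 51.2 to 74.1 kb past the TES inside IL12RB2, an interleukin 12 receptor subunit gene with no promoter region in any library. Behind CSTF1, a subunit of the cleavage stimulation factor that acts at polyadenylation sites, 11 members stood 33.9 to 56.3 kb past the TES, in and just past CASS4. Behind RRP8, a gene for a nucleolar methyltransferase, 8 members stood 34.2 to 56.9 kb past the TES inside DNHD1. CASS4 and DNHD1 had a promoter region in 2 of the 4 libraries each. RRP8 differed from the other genes in its vehicle signal. Vehicle regions covered 0.87% and 1.48% of the stretch between its TES and the run.

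Over the 28 runs of at least 5 members that began past an active TES, within 50 kb of it and without reaching over it, the median start was 16.6 kb past the TES. Median coverage of the run was 0% in both vehicle libraries, as the rule required of the members, and 71.3% and 51.9% in the CDDD11-8 libraries. A run begins at its first member, so the rule also set where the stretch between the TES and the run ends. In that stretch the median coverage was 56.9% and 54.3% with vehicle and 42.7% and 37.4% with CDDD11-8. These values are a description with no test. Single genes departed from the medians, such as RRP8 with vehicle and CSTF1 with CDDD11-8, where regions covered 11.9% and 2.72% of the stretch.

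In all, 331 active genes had a member within 50 kb past the TES that was outside genes or in a silent host, or 3.17% of the 10431 active genes. These genes had a median length of 40.6 kb, against 31.2 kb for all active genes. With vehicle, regions covered a median of 34.8% and 25.4% of their bodies, against 17.8% and 13.6% for all active genes. With CDDD11-8 the medians were 12.4% and 10.6%, against 10.6% and 9.06%. Genes with a member past their end thus had more of their body covered with vehicle than other active genes did, and a similar share with CDDD11-8. The comparison is across genes of the same libraries and carries no test.

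Coverage past the TES was compared in bins of distance. At 0 to 5 kb it was 56.1% and 49.8% with vehicle and 31.7% and 25.5% with CDDD11-8 over the 331 genes. At 5 to 10 kb it was 31.2% and 24.7% against 33.7% and 25.8%, and here the treatments overlapped. At 10 to 20 kb it was 15.3% and 12.1% with vehicle and 27.4% and 20.5% with CDDD11-8, with both CDDD11-8 libraries above both vehicle libraries. Since these genes were chosen for a region found only with CDDD11-8 in this stretch, the difference there was fixed in part by the choice. Over all 10431 active genes, coverage at 10 to 20 kb was 17.8% and 15.0% with vehicle and 14.5% and 11.2% with CDDD11-8, and there both CDDD11-8 libraries lay below both vehicle libraries.

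The genes with the most members inside them or within 10 kb downstream were often neighbours of an active gene. IL12RB2 held 16 members, all inside it, at 23.3 to 73.8 kb past SERBP1, and its covered share was 5.48% and 0.51% with vehicle and 34.5% and 28.8% with CDDD11-8. CASS4, a scaffold protein gene, held 11, with a covered share of 2.38% and 0% against 34.1% and 23.4%. DNHD1, a gene of the dynein heavy chain family, held 10, with 0.33% and 0.52% against 32.9% and 22.2%. MAP3K19, a kinase gene, held 10 at 9.14 to 37 kb past CCNT2, which encodes cyclin T2, a partner of CDK9 in P-TEFb. The MAP3K19 promoter had no region in any library, and 0.34% and 0.90% of the gene was covered with vehicle against 14.3% and 11.2% with CDDD11-8. In these 4 genes both CDDD11-8 libraries lay above both vehicle libraries, an order that the choice of genes by their number of members fixed.

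Hosts with a promoter region in all 4 libraries were more varied. COLEC11, a collectin gene that lies past the ribosomal protein gene RPS7, held 8 members including the next widest of all at 14782 bp, and its covered share was 3.16% and 3.41% with vehicle and 72.3% and 52.7% with CDDD11-8. ARID3A, a DNA-binding protein gene, held 8, with a covered share of 0.56% and 3.42% against 57.0% and 16.1%. HPX, which encodes the heme carrier hemopexin, held 6, with 18.8% and 15.7% against 81.4% and 47.2%. RPSA held 6 members, 4 inside the span of its annotated transcripts and the others just past it, with 60.3% and 54.5% against 72.4% and 65.4%. SP3, a transcription factor gene, showed the other order. It held 7 members, but its covered share was 74.3% and 65.6% with vehicle and 17.0% and 15.4% with CDDD11-8. NT5E, the gene of the ectonucleotidase CD73, had a promoter region in 2 libraries and held 6 members at 20.9 to 49.5 kb past SNX14. Its covered share was 8.76% and 8.31% against 28.1% and 17.8%. The genes of this paragraph were also chosen by their number of members, which bears on the order in COLEC11, ARID3A, HPX, RPSA and NT5E.

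The strongest and widest members were placed in the same settings. The strongest of all, 7553 bp wide on chromosome 5 (chr5:137825277-137832829, GRCh37) in intergenic sequence 14.0 kb past ETF1, had a fold of 17.4 in replicate 1 and 10.0 over 5239 bp in replicate 2. It lay 3033 bp from the nearest vehicle region and 24108 bp from the nearest protein-coding TSS. Intergenic members are named here by the nearest active TES behind them, and other genes near them were not compared. Next came a narrow region of 366 bp, 39.4 kb past TBP, which encodes the TATA-binding protein, with a fold of 11.3 and 12.9 and 24393 bp from any vehicle region. The region 28.5 kb past HNRNPD, an RNA-binding protein gene, was 8900 bp wide, with a fold of 7.32 and 8.52.

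Of the rest of the strongest 10, 2 were downstream of a TES. The region 4.18 kb past RPSA (chr3:39469066-39477931) had a fold of 9.61 and 6.61 over 8866 and 6742 bp. The region 3.23 kb past EPHX3, an epoxide hydrolase gene, had a fold of 10.8 and 6.25 over 7641 and 5312 bp. An intron of CAPN8, a calpain gene, held a region with a fold of 7.43 and 9.14 that was 152722 bp from any promoter region of its list. Introns of C1orf159 and RNF170, the latter a ubiquitin ligase gene, held regions with a replicate 1 fold of 6.53 and 5.69, and for both the replicate 2 region reached the promoter. Among the 5 widest members were also an intronic region of RAPSN, a gene of the neuromuscular junction, with 9168 bp in replicate 1 and 2745 bp in replicate 2, and one of 8957 bp lying 25.7 kb past the kinase gene DYRK1A with 3499 bp in replicate 2.

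Promoters of the genes that carry members were then described, since promoter regions of replicate 1 were excluded from the members. The overlapping replicate 2 region was not held to this limit. It was at a promoter for 274 members, 161 of them inside a protein-coding gene. Promoter regions of CDDD11-8 replicate 2 thus helped to choose some of the carriers, and the rule bears in part on the values below. Members lay inside or within 10 kb downstream of 567 of 20176 protein-coding genes (2.81%), of which 436 were active. The median width of their promoter region was 2807.5 and 3069 bp with vehicle and 5152 and 4774.5 bp with CDDD11-8, or 2938 ± 185 bp against 4963 ± 267 bp (SD, n = 2, exact permutation p = 0.33). Over all active genes the medians were 3051 and 3152 bp with vehicle and 4892 and 4356 bp with CDDD11-8. In both sets the promoter regions were wider in both CDDD11-8 libraries than in either vehicle library, and the difference between the sets was not tested. The percentile of the promoter fold within its library was 91.0 and 91.7 with vehicle and 87.2 and 85.3 with CDDD11-8 (exact permutation p = 0.33). With the same number of strongest regions in every library this difference turned from −5.09 to 10.6 percentile points.

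Gene lists of known function held few carriers. Of 22 immediate early genes, which respond to stimuli without new protein synthesis, EGR1 and KLF6 carried a member (9.09%, against 2.81% of all protein-coding genes). Of 16 heat shock genes, BAG3 and HSP90AA1 did (12.5%). Of 83 cytosolic ribosomal protein genes 5 did, namely RPL27A, RPL37A, RPL7, RPS29 and RPSA (6.02%), and 9 (10.8%) had a member outside genes or in a silent host within 50 kb past the TES, against 3.17% of the 10431 active genes, which alone could be counted in this way. Of 64 replication-dependent histone genes 1 did, H2BC3, and of 24 genes of P-TEFb and elongation factors 1 did, MLLT1, which encodes a reader protein of the super elongation complex. None of 20 genes for 3′ end processing and termination factors carried a member. The run behind CSTF1, one of them, is not in this count because it lies beyond 10 kb in and past CASS4. These counts are small, and the lists were not tested.

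Members were less GC-rich than the other non-promoter regions of their own library. The median GC content of the 300 bp around the summit was 47.3% for members, with the middle 50% between 41.7% and 53.7%. It was 53.3% for regions found in all 4 libraries, 52.3% for all non-promoter regions of CDDD11-8 replicate 1 and 47.3% for regions found only with vehicle. GGGCGG was present on either strand in 10.7% of member windows, against 26.1% of windows found in all 4 libraries, 17.7% of all non-promoter windows of the list and 8.77% of those found only with vehicle. AATAAA was present in 27.2%, 20.3%, 21.5% and 30.6% in the same order. TATAAA was present in 13.9%, 10.8%, 11.9% and 18.2%, and TGANTCA in 8.51%, 7.80%, 7.73% and 7.12%. In GC content, GGGCGG and AATAAA, members stood closer to regions found only with vehicle, and in TATAAA and TGANTCA closer to regions found in all 4 libraries.

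Over the libraries, the median GC content of all non-promoter regions was 49.0% and 46.0% with vehicle and 52.3% and 49.7% with CDDD11-8 (n = 2 per treatment, exact permutation p = 0.33). Without vehicle replicate 2 the difference of 3.50 percentage points was 2.00, and without CDDD11-8 replicate 1 it was 2.17. With the same number of strongest regions in every library it was 1.83, and the libraries of the treatments then overlapped.

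Members were spread over all chromosomes, though unevenly. The 5 on chromosome Y included runs of 2 inside IL3RA. This gene is annotated on chromosome X as well, where it held a run of 5. Which copy the reads came from was not tested. Chromosome 2 held 10.5% of members, against 6.89% of all non-promoter regions of the list, chromosome 4 held 5.56% against 3.15% and chromosome 22 held 0.98% against 3.79%. Copy number was not analysed here.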

How the data were processed

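RNAPII ChIP-seq of MDA-MB-453 cells was analysed from the peak lists of 4 libraries, 2 per treatment. Bowtie 2 alignment to GRCh37 and MACS2 peak calling per library, each against its input and without pooling, were done by the authors. Per the file headers, the deposited pileup is a signal at the summit, the deposited fold enrichment is a ratio to local background, and the deposited p-value and q-value are on the −log10 scale. The lists hold no read counts, so depth is unknown beyond the minimum that the labels state, and intervals cover counting error only. Longer lists follow from deeper or less scaled libraries as well as from RNAPII, which bears on presence and absence.

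Summits sharing a start and end were joined into 1 region with the highest fold among them. Gene spans, exons and 78577 protein-coding TSS came from GENCODE release 44 mapped to GRCh37, a gene span covering all its transcripts. A region was placed by its strongest summit, inside a gene first, then the nearer of 10 kb downstream or upstream, then lncRNA. An active gene had a promoter region in all 4 libraries. Distances past a TES take the nearest active gene, whatever lies between. Sequence was read from the GRCh37 genome. The sequence windows of the other strongest members are not reported here.

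One value per library entered each comparison, tested by exact permutation of the libraries (two-sided). Nothing else was tested, because the lists themselves chose the members. Named were the 10 members with the highest mean fold percentile, the 5 widest, those nearest the limits, the 10 runs with most members and the 10 genes with most members. Members and lists were chosen with earlier results of these data known. The calculations were tested on simulated regions. Alternatives changed the q-value, overlap, promoter, window and run limits, list lengths, replicates and pairing. Software was pysam 0.24.0, matplotlib 3.10.9, scipy 1.17.1, pandas 2.3.3 and numpy 2.4.6 under Python 3.11.15.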

Additional observations from a re-analysis of the deposited data

How the results depend on the processing

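The number of members, 1422, became 585 with 5 or more on the −log10 q-value scale in all 4 lists and 457 with it in the CDDD11-8 lists only. It was 462 with an overlap of 50% of both regions, 887 with no vehicle region within 1 kb, 380 with regions within 1 kb merged and 2244 with replicate 2 regions counted, and it ranged from 1694 to 5244 with 1 library left out. The share of members in runs, 43.5%, was 30.9% at the stricter q-value, 36.3% with a gap of 2 kb, 50% with 20 kb and 51.5% when the replicate 2 region also had to be free of vehicle regions and promoters, and the 33 runs of at least 5 became 5 at the stricter q-value and 21 with 2 kb. The share of all members within 50 kb past an active TES, 66.0%, was 36.9% within 20 kb, 77.4% within 100 kb and 72.4% with the free replicate 2 region. The choices of active genes, of 50 kb and of the free replicate 2 region were made after seeing the data. With equal numbers of regions in every library, the downstream difference turned from 3.66 to −2.02 percentage points and that of the carrier promoter fold percentile from −5.09 to 10.6. The cause was not tested. The other differences between treatments kept their direction, though none could pass a threshold in this design, and some moved in size. With equal numbers of regions the share inside genes went from −19.2 to −9.75 percentage points, and the intergenic share from 7.25 to 1.71 with a window of 50 kb.

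With the replicate number as a block (replicate block), the differences kept their values by construction, for example −19.2 percentage points for the share inside genes, and the smallest p-value of the exact test was 0.5. The labels do not say that a number marks a shared passage, and same-numbered libraries deviated with a correlation of −0.11 over the promoter fold percentile of 10431 genes. A crossed pairing, chosen after seeing the data, gave 0 calls at 0.05, as did the stated numbers. Repeat content, 1 of the descriptions planned, was not analysed here. The lists carry no depth, so a region missing from a list was not detectable at its threshold rather than absent.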
